A study of Mus musculus and Homo sapiens with 33 samples.

Results

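Circular RNAs were compared between LLC1 cells, a mouse Lewis lung carcinoma line, treated for 48 h with pemetrexed at 2.5 uM together with cisplatin at 2.5 uM, and LLC1 cells that received DMSO, the solvent control, for the same time. The comparison used 6 of the 33 libraries of the series, 3 per group, chosen by their labels. The spread behind the test of each circular RNA was estimated from all 21 libraries of the drug panel. All 472 circular RNAs of the deposited drug panel were tested. Per the labels, these are the ones the authors had called differentially expressed somewhere in the panel. The cells were wild type in both groups and carried no transgene, and LLC1 is a single tumour line in culture without the other cells of a tumour. Whether the 3 libraries of a group are separate cultures is not stated, so the spread behind each p-value may be technical. The drug panel was made to look for circular RNAs tied to immunogenic cell death. No host gene on the lists of leukocyte (13 genes), endothelial and fibroblast (16) or lung epithelial markers (16) was among the rows, so the table could not be used to check the cell type against its markers.

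A circular RNA forms when the splice donor at the end of an exon joins the acceptor of an exon that lies before it in the same transcript. The ring has no free ends and resists exonucleases, so such RNAs can outlast the linear transcript of the same gene. Pemetrexed is an antifolate that blocks enzymes of thymidylate and purine synthesis, and cisplatin is a platinum compound that crosslinks DNA. The pair is a standard chemotherapy of non-squamous lung cancer and mesothelioma.

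A circular RNA is recognised by its back-splice junction, the point where the end of one exon meets the start of an earlier one. The junctions below belong to 9 of the 10 circular RNAs that lie on 1 annotated transcript and were above 0 in every treated library. They were assembled from GENCODE M21 transcripts (mm10), on the transcript strand, with the last bases of the donor exon in lower case and the first bases of the acceptor exon in capitals. Each side has 15 bases where the circle holds the start codon and 50 where it holds coding sequence only.
Ttc3: tatggggcagtttagGACTGTGCAGCATGG
Spen: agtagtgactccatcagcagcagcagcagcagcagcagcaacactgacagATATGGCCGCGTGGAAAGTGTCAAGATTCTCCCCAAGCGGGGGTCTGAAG
Gstcd: tcagcccgaaggaagGTGACCCAATGACAA
Cep350: ctccagcatacaaagGTAAATTGGCAAGAT
Tbc1d14: tcacttctttacaagTTTCTTCTGGGACCA
Hibadh: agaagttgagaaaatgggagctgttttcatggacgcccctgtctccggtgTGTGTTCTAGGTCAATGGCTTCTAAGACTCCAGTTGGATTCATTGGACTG
Mllt3: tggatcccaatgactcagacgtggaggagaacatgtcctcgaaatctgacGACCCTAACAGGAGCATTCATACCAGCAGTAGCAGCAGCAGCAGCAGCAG
Zfp644: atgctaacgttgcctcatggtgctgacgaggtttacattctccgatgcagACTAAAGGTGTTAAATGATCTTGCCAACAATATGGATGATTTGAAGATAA
Ect2: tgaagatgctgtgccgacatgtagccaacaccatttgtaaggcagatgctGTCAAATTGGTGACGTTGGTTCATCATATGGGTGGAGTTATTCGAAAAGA

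In 6 of these 9 junctions, the donor exon ended in ag. The junctions of Ect2, Mllt3 and Hibadh ended otherwise. Runs of agc lay within the printed bases before the junction in Spen and after it in Mllt3, and neither run reached the junction.

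A small set of circular RNAs was above 0 after pemetrexed plus cisplatin: 98 in at least 1 treated library, of which 93 were at 0 in all DMSO libraries. In the treated libraries 54, 52 and 45 of the 472 circular RNAs were above 0, and in the DMSO libraries 5, 5 and 4. Of the 472 rows, 467 were at 0 in all DMSO libraries. The authors' selection of rows bears on these counts, so they do not show how many circular RNAs the cells of either group carried. The difference of 45.7 had an exact permutation p of 0.1 (two-sided), the smallest that 3 against 3 libraries allow. The number with a value of 500 or more was higher by 33.3, with the same p of 0.1. The summed signal was 81217, 103361 and 82104 after treatment and 22637, 41976 and 16492 in DMSO. The values are the authors' signal, whose unit is not named. Within a library they fell on whole multiples of 1 constant divided by the length of the circle, so most could be turned back into back-splice reads, the reads that cross the junction. That held in every library for 439 of 472 rows (93.0%), and for 92 of the 98 rows above 0 after treatment. The rows so resolved held 592, 959 and 553 reads in the treated libraries, and at least 350, 329 and 307 in DMSO.

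**Figure D1:**
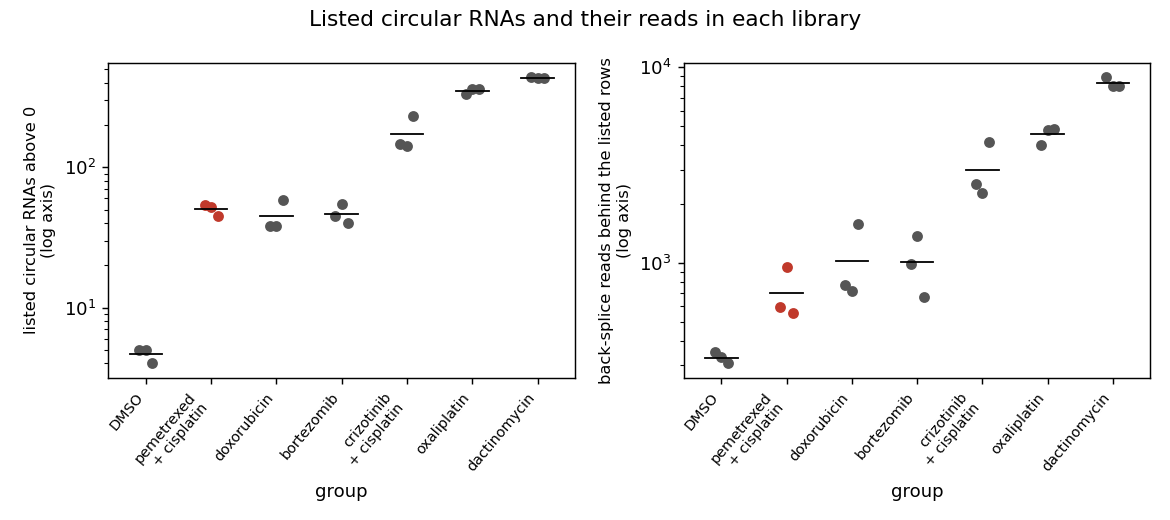
Number of listed circular RNAs above 0 (left, log axis) and back-splice reads behind the values that gave whole reads (right, log axis) in each of 21 LLC1 libraries, by group. Points are libraries and bars are means of 3. The DMSO reads are lower bounds. The treated libraries hold 45 to 54 circular RNAs above 0, against 4 or 5 in DMSO and 141 to 234 after crizotinib plus cisplatin.

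A value of 0 in DMSO is a limited statement, because a single read may have weighed more there. For a circle of 1000 nt, a single read counted for 124.5, 141.7 and 140.8 units in the treated libraries. In DMSO it counted for at most 221.9, 336.5 and 143.5, as read from 4 or 5 rows, so read counts given for DMSO are lower bounds. No resolved treated value rested on fewer than 2 reads, and the median was 7, 11 and 11 reads in the 3 libraries. For each circular RNA, the value that 3 reads would have had in DMSO was therefore taken as the limit a 0 allows. These reads and limits cover counting error only.

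The set was only partly shared between treated libraries. Of the 472 circular RNAs, 98 (20.8%) were above 0 in at least 1 treated library, 13 in all 3, 27 in 2 and 58 in 1. The first and second library shared 20, which is 37.0% of the first and 38.5% of the second. The second shared 25 with the last, or 48.1% and 55.6%. Circular RNAs above 0 in all 3 libraries had a median of 14 reads per value, and those in 1 library had 9. The 5 rows with the most reads held 35.6%, 49.1% and 35.1% of the reads of a library. The highest value belonged to a different circular RNA in each: to Ehmt1, a histone methyltransferase gene, at 6384 in the first, to Tiam2, a Rac exchange factor gene, at 7871 in the second, and to Dpy19l1, a mannosyltransferase gene, at 6346 in the third. Each of these circles was listed at 0 in 1 of the other treated libraries.

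With limma on log2(value + 1), 7 circular RNAs were higher after pemetrexed plus cisplatin than in DMSO at an adjusted p of 0.05 (1.48% of the 472 tested). The authors had selected these rows as changed in the same panel, so the adjusted p-values here and below lend no independent support. None was lower, and 33 had an unadjusted p under 0.05 in either direction. Because the rows were selected as changed and 5 of them were above 0 in DMSO, at most 5 could be lower, and the balance of directions is not a result. For 11 circular RNAs (2.33%) every treated value lay above every DMSO value, and for 1 (0.212%) every treated value lay below. All 7 that rose were listed at 0 in all DMSO libraries, so their fitted log2 differences depend on the added 1, and the size is given against the value of 3 reads. The standard errors come from the spread within all 7 groups of the panel, since libraries at 0 have none. A group at 0 enters with a spread of 0, so rows at 0 in several groups tend to have smaller standard errors. In a bulk library, a circular RNA carried by fewer cells and one with fewer copies per cell cannot be told apart.

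**Figure D2:**
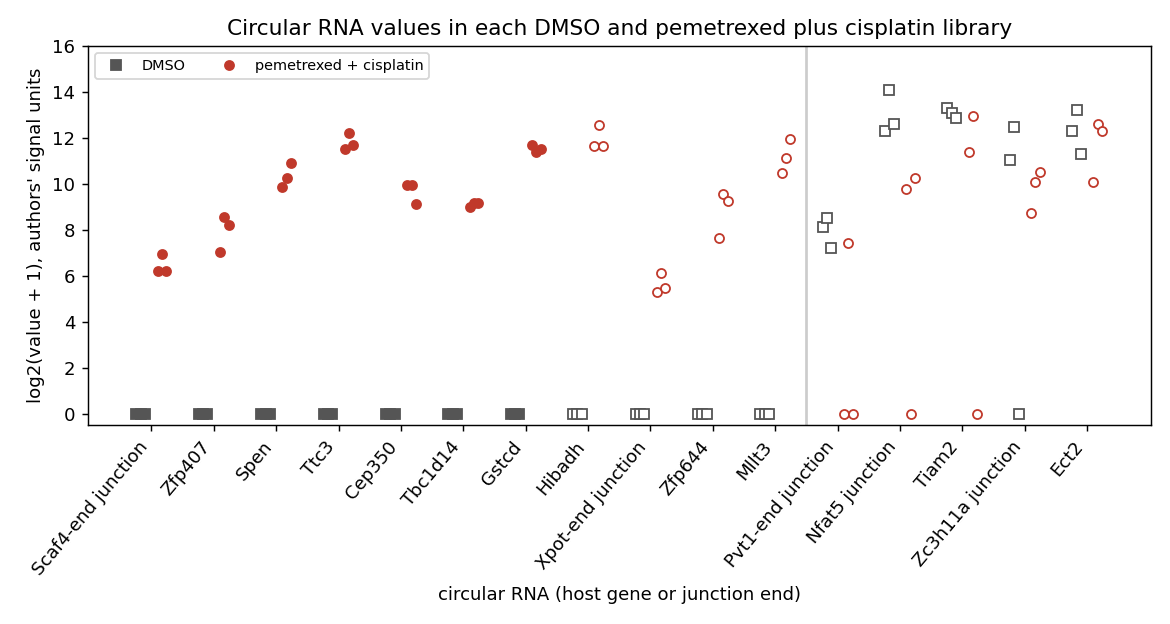
Values of 16 circular RNAs in the 3 DMSO libraries (squares) and the 3 pemetrexed plus cisplatin libraries (circles), as log2(value + 1) of the authors' signal. Filled symbols mark the 7 that passed an adjusted p of 0.05. Left of the grey line are the 11 at 0 in DMSO, whose treated values all lie above 0, and right of it the 5 above 0 in DMSO.

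Ttc3, a ubiquitin ligase gene with tetratricopeptide repeats, had the highest mean among the 7. Its circle joins exon 10 back to exon 2 (chr16:94383912-94393174, mm10, plus strand, 9 exons, 856 nt) and holds the start codon. The treated values were 2909, 4800 and 3290, on 20, 29 and 20 reads, and all DMSO values were 0. The treated mean of 3666 ± 1000 (SD, n = 3) was at least 4.47-fold higher than the mean of the DMSO limits. The fitted difference was 11.81 ± 2.13 (log2, SE; limma, adjusted p = 0.00596), and it passed in all 6 fits that left out 1 library.

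Gstcd, named for a glutathione S-transferase-like domain, had the most even of the high values. Its circle of exons 2 to 5 (chr3:133062566-133085025, minus strand, 1264 nt) stood at 3349, 2690 and 2897, on 34, 24 and 26 reads. All 3 values lay above the highest DMSO limit of 799, and the mean of 2979 ± 337 (SD, n = 3) was at least 5.36-fold higher than the mean limit. The fitted difference was 11.54 ± 2.50 (log2, SE; limma, adjusted p = 0.0209). The call was lost without the third treated library (adjusted p = 0.0565) and when a DMSO library was left out, whichever it was (up to 0.0858). All DMSO values were 0, so leaving out a DMSO library changed the group size and pooled spread but not the difference.

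In the fit over all 21 libraries, the row with the lowest p was a junction that no annotated gene spans. It runs from an exon boundary of Scaf4, which encodes a protein that binds RNA polymerase II, to a position inside Gm49708, a processed transcript (chr16:90262174-90344107, both genes on the minus strand). Its values were low on the authors' scale, at 72.9, 121 and 72.2, because they were divided by a span of 81934 nt, and they rested on 48, 70 and 42 reads. The mean of 88.7 ± 28.0 (SD, n = 3) was at least 10.4-fold higher than the mean DMSO limit of 8.57. The fitted difference was 6.44 ± 0.93 (log2, SE; limma, adjusted p = 0.00194), and it passed in all 6 fits that left out 1 library. With the 6 compared libraries fitted alone, its adjusted p was 0.0499, against 2.81e-05 for Ttc3 and for Gstcd (limma). Its first rank was not kept there. Of the 7 this junction had the lowest value, and of the 6 with whole reads it had the most reads.

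Spen encodes a large RNA-binding corepressor of transcription. The circle joins exon 3 back to exon 2 (chr4:141516836-141522392, minus strand, 804 nt) and holds coding sequence only. Its treated values of 929, 1234 and 1927 rested on 6, 7 and 11 reads. Of these, 1 lay above the highest DMSO limit of 1256, and the mean of 1363 ± 511 (SD, n = 3) was at least 1.56-fold higher than the mean limit. The fitted difference was 10.35 ± 1.83 (log2, SE; limma, adjusted p = 0.00596).

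Zfp407, a zinc finger protein gene, gave a circle of 2 exons (chr18:84552870-84563046, minus strand) at 129, 381 and 291. These values did not resolve to whole reads, so no limit could be set for DMSO. The mean was 267 ± 128 (SD, n = 3) and the fitted difference 7.93 ± 1.32 (log2, SE; limma, adjusted p = 0.00491). The calls of Spen and Zfp407 held in all 6 fits that left out 1 library.

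The remaining calls rested on few reads. Cep350, which encodes a centrosomal protein, had a circle of exons 2 to 6 (chr1:155953154-155962560, minus strand, 1016 nt) at 980, 976 and 554, on 8, 7 and 4 reads. Its mean of 837 ± 245 (SD, n = 3) was 1.21-fold the mean DMSO limit, but no value lay above the highest DMSO limit of 994. The fitted difference was 9.66 ± 1.99 (log2, SE, limma, adjusted p = 0.0162). Tbc1d14, a regulator of Rab trafficking and autophagy, had a circle of exon 2 alone (chr5:36571296-36572037, minus strand, 742 nt) at 503, 573 and 569, on 3 reads in each library. All 3 values lay below the lowest DMSO limit of 580, so 3 reads in DMSO could have given a value as high. No fold is given (fitted difference 9.10 ± 1.89, log2, SE, limma, adjusted p = 0.0162). Neither call survived the loss of a DMSO library, whichever it was (adjusted p up to 0.0722), though the fitted differences stayed the same.

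**Figure D3:**
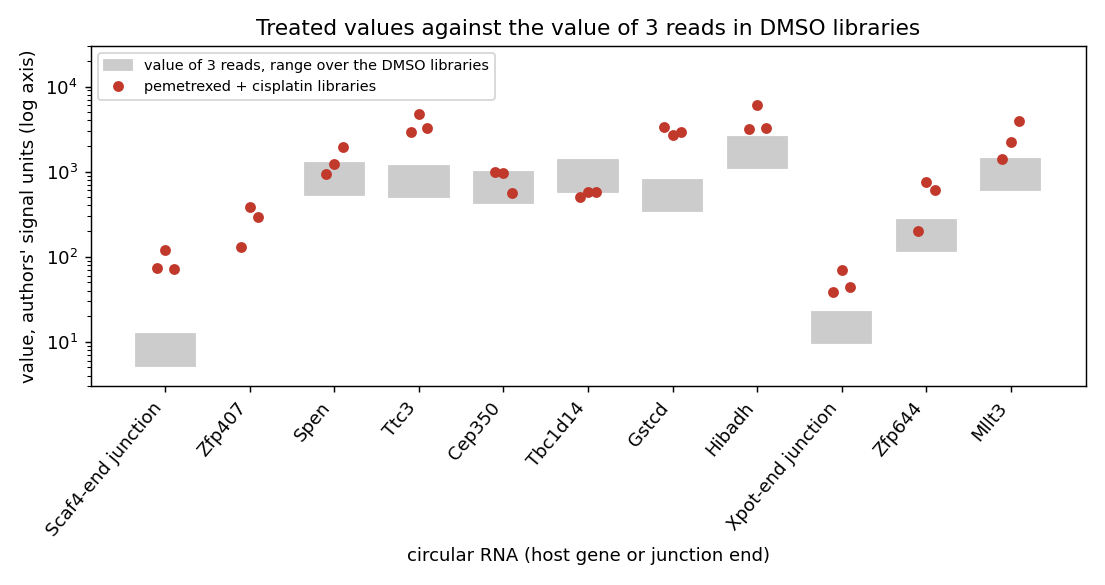
Values of the 11 circular RNAs above 0 in all treated libraries and at 0 in all DMSO libraries (red points, authors' signal, log axis), against the range of the value that 3 reads would have had in the 3 DMSO libraries (grey bars). For Ttc3, Gstcd, Hibadh and the Scaf4-end and Xpot-end junctions every point lies above the bar, and for Tbc1d14 and Cep350 none does. Zfp407 has no bar because its values gave no whole reads.

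A further 4 circular RNAs were above 0 in all treated libraries and 0 in all DMSO libraries without passing. Hibadh encodes a dehydrogenase of valine breakdown. Its circle of exons 2 to 4 (chr6:52619977-52630349, minus strand, 393 nt) had values of 3168, 6129 and 3225, on 10, 17 and 9 reads, each above the highest DMSO limit of 2569 (limma, adjusted p = 0.0513). That value crossed the threshold with a pseudocount of 10 (adjusted p = 0.0423), with equal library totals (0.0325) and with the 6 compared libraries alone (2.81e-05). Mllt3, a subunit gene of a transcription elongation complex, had a circle of its exon 5 (chr4:87840682-87841389, minus strand, 708 nt) at 1407, 2201 and 3978, on 8, 11 and 20 reads (adjusted p = 0.0659). Zfp644, a zinc finger gene, had a circle (chr5:106619540-106638635, minus strand) at 200, 759 and 603, on 6, 20 and 16 reads (adjusted p = 0.0659). Its reads came out whole for a length of 3735 nt, and the transcript used above gives 3642 nt. The last was a junction from an exon boundary of Xpot, the tRNA exportin gene on the minus strand, to a position inside D930020B18Rik on the plus strand (chr10:121611476-121656496). It had 38.7, 69.2 and 43.8, on 14, 22 and 14 reads (adjusted p = 0.0659). Across the 10 of these 11 circular RNAs with a known length, 8 had a value above the highest DMSO limit, 5 had every value above it and 2 had none. For all 87 circular RNAs at 0 in DMSO with a known length, the number with a value above the limit was 51.

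The 5 circular RNAs present in DMSO are all that were above 0 in that group, and none passed the test. Of these 5, the lowest p belonged to a junction that ends on an exon boundary of Pvt1, a long noncoding RNA gene next to Myc (chr15:61864604-62038201, plus strand at its Pvt1 end). It had 281, 370 and 146 in DMSO, on at least 220, 191 and 176 reads, and 0, 172 and 0 after treatment, on 0, 211 and 0 reads. So it was at 0 in 2 treated libraries, and its value in the second lay within the DMSO range (log2 difference -5.48 ± 1.83 SE, limma adjusted p = 0.232). Without the second treated library the difference was -7.96 and passed (adjusted p = 0.0104). Another Pvt1 circle (chr15:62170758-62175926) was at 1614 in the first treated library on 67 reads and at 0 in the other libraries of the group.

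Nfat5, the gene of an osmotic stress transcription factor, gave a junction inside the gene with neither end on an exon boundary (chr8:107334912-107335484). Its values were 5035, 17618 and 6263 in DMSO and 869, 0 and 1229 after treatment, and this was the row whose treated values all lay below DMSO. The log2 difference was -6.33 ± 2.61 (SE; limma, adjusted p = 0.484). The Tiam2 circle (chr17:3477175-3516717, plus strand) stood at 10117, 8628 and 7565 in DMSO and at 2660, 7871 and 0 after treatment. There the groups overlapped (log2 difference -4.98 ± 2.23 SE, limma adjusted p = 0.599).

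Ect2, a gene needed for cytokinesis, was present in every library of both groups. Its circle of exons 7 to 22 (chr3:27115396-27145059, minus strand, 1824 nt) had 5111, 9593 and 2518 in DMSO and 1092, 6214 and 5018 after treatment. The log2 difference was -0.62 ± 2.33 (SE; limma, adjusted p = 1). A junction inside Zc3h11a and the overlapping Gm38394, both on the minus strand, has neither end on an exon boundary (chr1:133649849-133651015). It had 2092, 5767 and 0 in DMSO and 427, 1093 and 1448 after treatment (log2 difference 1.94 ± 3.71 SE, adjusted p = 1), and its sign turned without the third DMSO library (-1.98).

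Among circular RNAs seen in 2 treated libraries none passed. The nearest were those of Crebrf, a regulator of the unfolded protein response, at 180, 0 and 407 (adjusted p = 0.0659), and of Rnf111, a ubiquitin ligase gene, at 1115, 0 and 2208 (adjusted p = 0.0659). Neil3, the gene of a DNA glycosylase that acts on crosslinked and oxidised DNA, stood at 0, 1558 and 2383, on 0, 13 and 20 reads (limma, adjusted p = 0.0667). Foxo3, a transcription factor gene whose circular RNA is widely described, stood at 0, 592 and 686 (adjusted p = 1).

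Host genes were next read by the pathways that the drugs touch, against 98 of 472 rows (20.8%) above 0 in a treated library and 7 (1.48%) that passed. Folate and nucleotide synthesis genes, the pathway pemetrexed blocks, hosted 2 listed circular RNAs, and 1 was above 0: Mthfd2l, a mitochondrial folate enzyme gene, at 1094 in the first library on 5 reads (adjusted p = 1). DNA repair genes hosted 9, of which 2 were above 0 and none passed. Beside Neil3 this was Rad52, a recombination gene, at 1644 in the first library on 4 reads. No gene of the p53 target list hosted a listed circular RNA.

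Cell cycle genes hosted 8 listed circular RNAs and 5 were above 0 after treatment. Their median log2 difference was 1.60, against 0 over all 472 rows. It lies midway between a row at 0 and an Esco1 circle at 3.20, a difference that depends on the added 1. The 2 folate and nucleotide rows had a median of 1.68, and neither median is read as a shift. Of the cell cycle rows Cep350 passed. Espl1, which encodes separase, had 2810, 3838 and 0 (adjusted p = 0.289). Esco1, a cohesin acetyltransferase gene, had 1 circle in 1 library and another in 2, neither of which passed, and Ect2 was also above 0 in all DMSO libraries. Ubiquitin genes had 3 of 17 above 0, with Ttc3 passing. Chromatin genes had 5 of 33, with Spen passing. Regulators of small GTPases had 6 of 22, with Tbc1d14 passing. RNA processing genes had 0 of 21. Of 28 circular RNAs from genes known to host them, 7 were above 0 and Ttc3 passed. No list had a circular RNA that passed in the lower direction. Of the circular RNAs on these lists, those of Ect2 and Tiam2 alone were above 0 in DMSO, so no others could have.

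Most of the 98 circular RNAs above 0 after treatment were made of annotated exons. Both ends lay on exons of 1 transcript for 79 of them (80.6%), against 342 of the 374 at 0 (91.4%). A further 15 lay within a gene but not on such exons, and for 4 no gene covered both ends. The 79 had a median of 3 exons and 697 nt, and the circles at 0 had 4 exons and 690 nt. Single-exon circles made up 22.8% of the 79 (18 circles) and 8.77% of the circles at 0 (30). The first exon was exon 2 in 54.4% of both. GC content had a median of 47.2% and 46.3%. Of the 79, 63.3% had a donor exon ending in AG, against 54.9% of all 421 rows on 1 transcript.

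A circle whose length is a multiple of 3 keeps its reading frame when read around. Among the 49 that held coding sequence only, the length was a multiple of 3 in 21 (42.9%), against 74 of 229 circles at 0 (32.3%). All 5 coding-only circles above 0 in every treated library had such a length: those of Spen, Hibadh, Mllt3, Ect2 and Zfp644, whose junctions are printed above. Another 5 of the 10 on 1 transcript held the start codon. These counts describe rows that the authors had selected and carry no test.

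Of 72 host genes with 2 or more listed circular RNAs, 52 had none above 0 after treatment, 16 had 1 and 4 had 2 or more. Tiam2 had 1 circle at 2660, 7871 and 0 and another at 0 in all treated libraries. In Zfp644 the circle described above was in all 3 libraries, a second, shorter one was at 1350 in the first alone, and another (chr5:106619540-106666845) was at 0 in all 3. Of the 4 listed junctions that start at position 61864604 of chromosome 15, the Pvt1-end junction alone was above 0 after treatment.

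Every circular RNA above 0 after pemetrexed plus cisplatin was also above 0 after at least 1 other drug of the panel. The number of other drug groups was 5 for 39 of them, 4 for 23, 3 for 23, 2 for 12 and 1 for 1. Of all 472 rows, 468 were above 0 after dactinomycin and 430 after oxaliplatin, so this overlap was largely fixed in advance. Whether the drugs share a response was not tested. Group means of Ttc3 lay between 2145 after dactinomycin and 5212 after bortezomib, with 3666 after pemetrexed plus cisplatin. Gstcd had its highest mean here, at 2979, against 240 after doxorubicin, 474 after bortezomib, 508 after crizotinib plus cisplatin, 678 after oxaliplatin and 711 after dactinomycin. Its differences from crizotinib plus cisplatin (2.84, adjusted p = 0.596), doxorubicin (8.37, adjusted p = 0.221) and bortezomib (8.04, adjusted p = 0.237) did not pass in limma. Ect2 was listed at 0 in all dactinomycin libraries, and had means of 5479 after doxorubicin and 5614 after bortezomib.

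**Figure D4:**
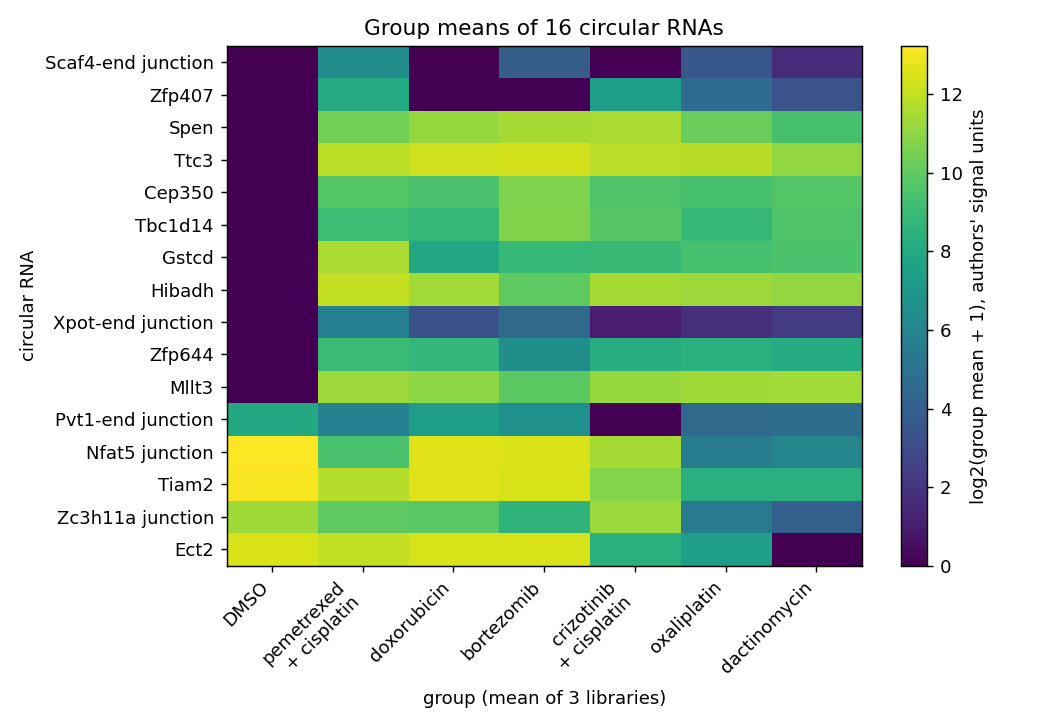
Means of 16 circular RNAs over 3 libraries in each of the 7 groups, as log2(mean + 1) of the authors' signal (colour). The rows are ordered by the p-value of pemetrexed plus cisplatin against DMSO, and the upper 11 are at 0 in DMSO. The Scaf4-end junction has its highest mean, 88.7, and Gstcd its highest, 2979, in the pemetrexed plus cisplatin column.

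The panel held cisplatin in another arm, where cells received 50 uM cisplatin and 10 uM (R)-crizotinib for 48 h. Cisplatin doses and partner drugs both differ, so their parts cannot be told apart. With limma, 73 circular RNAs (15.5%) differed between the arms: 5 were higher after pemetrexed plus cisplatin (1.06%) and 68 lower (14.4%). The median difference over all 472 rows was -1.25 (log2). The crizotinib arm also had more back-splice reads, 2529, 2285 and 4155 against 597, 959 and 553 over the values that gave whole reads in each library, and their part in the difference was not tested. Of the 98 circular RNAs, 87 were above 0 in the crizotinib arm, which is 88.8% of the 98 and 31.6% of its 275. That arm had 275 of all 472 rows above 0, against 91 after doxorubicin and 89 after bortezomib, so these shared percentages are not comparable between drugs.

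The 5 lower calls with the largest fitted differences were at 0 in all 3 pemetrexed plus cisplatin libraries, so these differences depend on the added 1. The size is again given against the value of 3 reads, here the mean limit of the pemetrexed plus cisplatin libraries. Spred2, an inhibitor of Ras signalling, had a mean of 10269 ± 5312 in the crizotinib arm (SD, n = 3), at least 12.4-fold higher than that limit (limma, adjusted p = 0.000806). A Tlk1 circle (chr2:70770004-70786995), from a kinase gene of chromatin assembly, had 8051 ± 1528, at least 3.78-fold higher (limma, adjusted p = 0.0135). Rapgef6, a Rap exchange factor gene, had 6136 ± 3838, at least 6.42-fold higher (limma, adjusted p = 0.0119). Erbin, a scaffold protein gene, and Ptbp3, a splicing regulator gene, had 5435 ± 2651 and 5113 ± 1682, at least 4.86-fold and 5.01-fold higher. These differences held in all 6 fits that left out 1 library, as did 41 of the 68 lower calls.

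Higher after pemetrexed plus cisplatin were Ect2, with a mean of 4108 ± 2680 against 331 ± 574 (log2 difference 8.34, limma adjusted p = 0.0183), and the Scaf4-end junction, which was at 0 in the crizotinib arm and at least 40.3-fold above the mean limit there (limma, adjusted p = 0.000121). The Xpot-end junction had 50.6 ± 16.4 against 1.10 ± 1.90 (4.94, adjusted p = 0.0265). Rnf111 and Crebrf, at 0 in the crizotinib arm, were the others (limma, adjusted p = 0.0139 each), with Rnf111 at least 5.48-fold above the limit and no limit for Crebrf. Of these 5, the Scaf4-end junction alone passed in all 6 fits that left out 1 library. The Scaf4-end junction, Rnf111 and Crebrf were at 0 in the crizotinib arm as in DMSO, so each had the same fitted difference as against DMSO. A single read on 1000 nt counted for 68.4, 82.4 and 29.6 units in the crizotinib arm, so a 0 there may be a firmer statement than a 0 in DMSO.

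**Figure D5:**
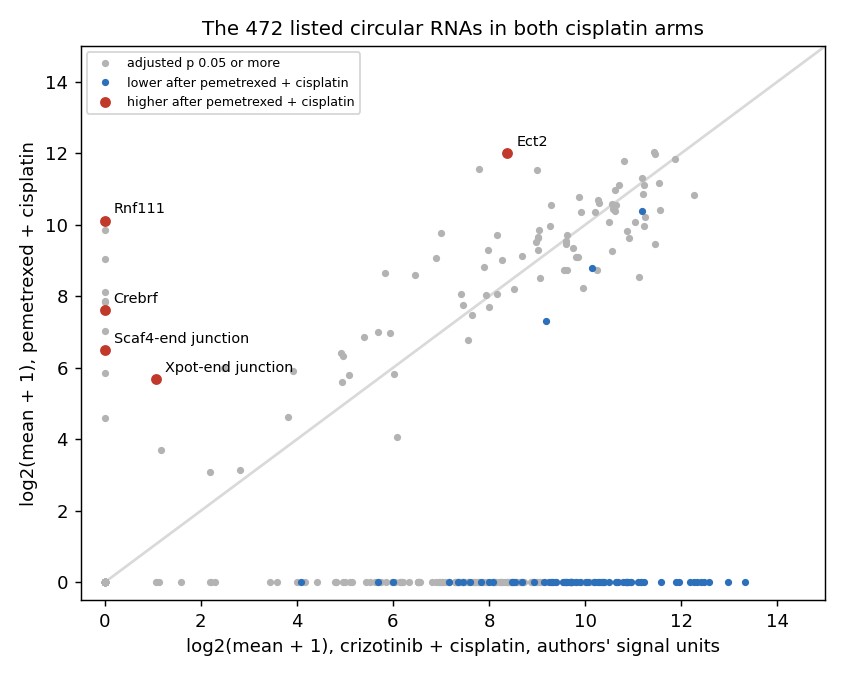
Means of the 472 circular RNAs after crizotinib plus cisplatin (horizontal) and pemetrexed plus cisplatin (vertical), as log2(mean + 1) of the authors' signal, with the line of equal means. Red points mark the 5 that were higher after pemetrexed plus cisplatin at an adjusted p of 0.05 and blue points the 68 that were lower. Most blue points lie on the horizontal axis, at 0 after pemetrexed plus cisplatin.

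Doxorubicin (labelled 4 mM) and bortezomib (100 nM) had like numbers of circular RNAs above 0. Of the 98, 51 were above 0 after doxorubicin (52.0% of the 98 and 56.0% of its 91) and 54 after bortezomib (55.1% and 60.7% of its 89). Against doxorubicin, 2 circular RNAs were higher (0.424%), the Scaf4-end junction (at least 17.1-fold above the limit, limma adjusted p = 0.00194) and Zfp407 (adjusted p = 0.00491), and none was lower, with 30 at an unadjusted p under 0.05. Both were at 0 in all doxorubicin libraries. Against bortezomib, Zfp407 was higher (0.212%; adjusted p = 0.00491). Rnf114, a ubiquitin ligase gene, was lower (0.212%), at 0 after pemetrexed plus cisplatin and at 8101 ± 4910 after bortezomib (SD, n = 3), at least 7.42-fold above the limit (limma, adjusted p = 0.00107). These 4 calls held in all 6 fits that left out 1 library. Where the Scaf4-end junction and Zfp407 were at 0 in the other drug group, as in DMSO, the shared fit returned the DMSO result. The differences were again 6.44 and 7.93 (log2), with the same adjusted p-values, so these calls add no separate result. The Scaf4-end junction was also present after bortezomib, at a mean of 13.9 and above 0 in 2 of 3 libraries, and that difference did not pass (3.48, limma adjusted p = 0.111).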

How the data were processed

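Total RNA of LLC1 cells was depleted of ribosomal RNA and made into directional libraries, per the labels' protocols. The authors deposited 1 table of signal values for 472 circular RNAs in 21 libraries, restricted to rows they had called changed. The unit is not named, and the circular RNA caller is not given in the sources used here. MultiQC, FastQC, featureCounts and STAR appear in the submitters' processing notes, as does mm10.

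The table holds no counts, so log2(value + 1) was fitted with limma 3.58.1 (R 4.3.3, trend in eBayes) over all 21 libraries with group means. Tests were two-sided, with Benjamini-Hochberg adjustment over 472 rows per comparison and a threshold of 0.05. On this scale, fold changes between low values above 0 are understated. A log2 difference from a 0 instead depends on the added constant and is not a measured fold. For Ttc3 it was 11.81 with 1 added, 8.49 with 10 and 15.13 with 0.1. Reads were recovered with a tolerance of 0.002 reads and used only for depth. Host genes and exons are from GENCODE M21.

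Members and gene lists were chosen with earlier results of these data known. Named were all rows that passed against DMSO, those above 0 in all treated or any DMSO library, those of the folate, repair, cell cycle and p53 lists, and the 5 largest calls per direction against other drugs. Other genes (such as Foxo3, Crebrf, Rnf111, Ehmt1 and Dpy19l1) were singled out after their values were seen.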

Additional observations from a re-analysis of the deposited data

How the results depend on the processing

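Against DMSO the 7 higher calls became 10 with the 6 compared libraries fitted alone and 11 with each library scaled to the same total. They became 4 without the oxaliplatin and dactinomycin libraries, an alternative chosen after seeing the data. With only rows above 0 in 2 or more of the 6 libraries they became 33 of 41. Of those 41 rows, 36 passed the filter through treated libraries alone, so the 33 is largely fixed by the filter and lends the calls no support. The 7 calls ranged from 4 to 15 with 1 library left out, and 4 of the 7 circular RNAs passed each time. As all 7 were at 0 in DMSO, leaving out a DMSO library changed the group size and pooled spread but not their differences. The 0 lower calls became 1 with total scaling, 1 with a pseudocount of 100 and 3 with that filter, and ranged from 0 to 1 with 1 library left out. A pseudocount of 100 ended the calls of Cep350 (adjusted p = 0.0858) and Tbc1d14 (0.117). The sign of the Zc3h11a junction (Gm38394) turned without the third DMSO library (-1.98, range to 4.26 over left-out libraries) and with a pseudocount of 100 (-0.13), and that of Ect2 without the first treated library (0.17, range from -1.11). The causes were not tested.

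With 1 library left out, calls against crizotinib plus cisplatin ranged from 2 to 5 higher and from 51 to 72 lower, against doxorubicin from 2 to 6 and from 0 to 2, and against bortezomib from 1 to 4 and from 1 to 6. A pseudocount of 10 gave 2 higher against bortezomib. The difference in circular RNAs above 0 ranged from 43.8 to 48.3. Where this left 2 libraries in a group, the shared spread of the other groups was assumed to hold for them. Correlations between same-numbered deviations in the treated and DMSO groups were -0.04, -0.02 and -0.03. Of the 98 rows behind them, 93 were at 0 in all DMSO libraries, which holds such correlations near 0. Whether the replicate numbers pair the samples therefore cannot be decided from them. The fit with the replicate block gave 7 higher and 0 lower. Depth limits what a 0 shows: in DMSO, 3 reads on 1000 nt were worth up to 1010 units.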
